A study of Mus musculus with 4 samples.

Results

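The S phase and G2/M phase genes of the cell cycle were followed through the mouse small intestinal epithelium under 2 diets. The set holds 42 genes of the 27998 in the deposited table. Of these, 21 are known for DNA replication (Pcna to Gmnn) and 21 for G2 and mitosis (Mki67 to Tubb5). They were chosen as textbook members of their phase, with earlier results of these data known. All 42 were found in the table by symbol. Each was followed over 15053 single cells in the 7 cell types that the authors had annotated.

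The groups were mice kept on a control diet and mice kept on a ketogenic diet, which is rich in fat and very low in carbohydrate, with 2 libraries of dissociated small intestine per diet. The sources used here do not give strain, age, sex, genotype, diet formula or time on the diet, nor the number of animals behind a library. No source states that the libraries of a diet came from separate animals, so p-values measure only how far these 4 libraries vary, and part of that may be technical. Transcripts were counted as unique molecular identifiers (UMIs), 1 per captured RNA molecule, from 3' ends on the 10x v2 platform.

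The crypts of the small intestine hold stem cells that divide throughout life. Their daughters, the transit amplifying cells, divide several more times as they move up the crypt and then leave the cycle as absorptive enterocytes or as secretory goblet, Paneth, enteroendocrine or tuft cells. Entry into S phase is driven by cyclin E and by the E2F transcription factors, which induce the genes that load the MCM helicase on DNA, supply deoxynucleotides and run the replication fork. Genes of G2 and mitosis come on later under the MuvB complex with B-MYB and FOXM1, and in resting cells the related DREAM complex holds them down through a promoter element called CHR, often with CCAAT boxes bound by NF-Y.

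Because these elements separate the phases, the promoters are shown first. RefSeq promoter windows (build GRCm38.p6, 250 bases before to 50 after the start of transcription) were found for 33 of the 42 genes, 16 of S phase and 17 of G2/M. Where a gene had more than 1 window, the highest count over its windows was taken for each motif separately. They were searched on both strands for 4 forms of the E2F site (TTCCCGC, with the variants TTCGCGC, also TTGCCGC, and last TTGGCGC), for the CHR element (TTTGAA) and for CCAAT. At least 1 E2F form stood in 10 of 16 S phase promoters and in 4 of 17 G2/M promoters, against 10.86% of the promoters of 27025 genes. The CHR letters stood in 1 of 16 S phase promoters, that of Mcm2, and in 11 of 17 G2/M promoters, against 20.23% of all. CCAAT was found in 10 of 16 and 15 of 17, against 41.06%, and at least 2 copies in 7 of 16 and 12 of 17, against 13.27%. Matches on opposite strands can overlap and were each counted, and a match is a description of letters, not evidence of a bound site.

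The 250 bases before the start are printed for 2 helicase genes of S phase and 2 chromosome genes of G2/M, 5′ to 3′ on the gene's strand, with every searched match in capitals. They are the first of their lists with E2F or CHR letters within that stretch. Mcm3, earlier in the list, was passed over because its E2F letters lie outside it. Mcm5 lies at chr8:75109259-75109508 on the plus strand, Mcm6 at chr1:128359706-128359955, Mki67 at chr7:135716380-135716629 and Top2a at chr11:99024190-99024439, all 3 on the minus strand, each directly upstream of its RefSeq start.
Mcm5: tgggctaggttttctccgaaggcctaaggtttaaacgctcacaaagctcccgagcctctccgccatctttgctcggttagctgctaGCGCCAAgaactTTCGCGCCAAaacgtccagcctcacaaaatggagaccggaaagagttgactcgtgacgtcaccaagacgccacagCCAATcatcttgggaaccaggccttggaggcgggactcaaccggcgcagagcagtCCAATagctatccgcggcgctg
Mcm6: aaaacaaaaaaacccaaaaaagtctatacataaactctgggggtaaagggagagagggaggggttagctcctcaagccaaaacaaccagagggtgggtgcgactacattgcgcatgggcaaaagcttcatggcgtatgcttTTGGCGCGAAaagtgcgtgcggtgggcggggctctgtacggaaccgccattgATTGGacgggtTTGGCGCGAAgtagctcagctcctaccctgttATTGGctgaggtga
Mki67: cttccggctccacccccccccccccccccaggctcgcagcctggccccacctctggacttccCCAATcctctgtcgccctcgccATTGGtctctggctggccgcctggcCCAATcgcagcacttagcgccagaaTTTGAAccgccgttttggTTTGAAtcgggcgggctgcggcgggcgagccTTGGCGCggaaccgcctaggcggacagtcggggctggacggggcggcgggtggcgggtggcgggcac
Top2a: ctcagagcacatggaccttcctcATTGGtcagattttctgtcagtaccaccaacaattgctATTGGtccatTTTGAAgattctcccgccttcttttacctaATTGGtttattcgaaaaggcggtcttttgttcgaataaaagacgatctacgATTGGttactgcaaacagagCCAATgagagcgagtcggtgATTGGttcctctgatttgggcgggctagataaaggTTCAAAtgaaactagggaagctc
The Mcm5 stretch holds 3 E2F matches, which end 158, 146 and 143 bases before the start and partly overlap, and 2 CCAAT boxes. The Mcm6 stretch has 4 E2F matches in 2 overlapping pairs, 2 CCAAT boxes and no CHR. In Mki67 a pair of CHR elements stands 111 and 93 bases before the start, downstream of 3 CCAAT boxes, with 1 E2F form at 61. Top2a carries 6 CCAAT boxes, the most of the 4 stretches, with CHR letters 174 and 18 bases before the start and no E2F form.

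The libraries held 3194 to 4896 cells and 27316428 to 34106639 UMIs, with medians of 6974.5 to 9040.0 UMIs per cell. Stem cells numbered 254 to 557 per library and transit amplifying cells 359 to 676. The share of cells with at least 50% mitochondrial UMIs was 3.47% and 2.70% under the control diet against 8.14% and 4.63% under the ketogenic diet. In all, 109 cell barcodes occurred in at least 2 libraries (0.729% of barcodes). Markers of each annotated type were highest in that type, though the Paneth class also held 31094 to 57268 CPM of goblet markers, and those of immune cells, stroma and blood were at or near 0 in stem and transit amplifying cells. Transit amplifying cells have no marker of their own on the lists used here and held 675 to 749 CPM of 6 stem cell markers against 1637 to 1789.9 CPM in stem cells, where CPM stands for UMI counts scaled to a common library total. The sources used here do not say how the authors assigned the types, and the genes described below may have helped to set them. Levels by type are therefore descriptions without a test.

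S phase genes were concentrated in transit amplifying cells. All 21 had their highest mean there, with a median of 2.33 times the stem cell mean and 3.05 times the enterocyte mean. The summed S phase level was 2487 ± 59.4 CPM (SD, n = 4 libraries) in transit amplifying cells and 1094 ± 32.6 CPM in stem cells. Enterocytes followed at 785 ± 95.5 CPM and goblet cells at 639 ± 53.7 CPM, 2 groups whose libraries overlapped. Tuft, enteroendocrine and Paneth cells had 426 ± 50.3, 325 ± 17.1 and 283 ± 30.8 CPM, and of these neighbours the enteroendocrine and Paneth libraries overlapped.

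**Figure D1:**
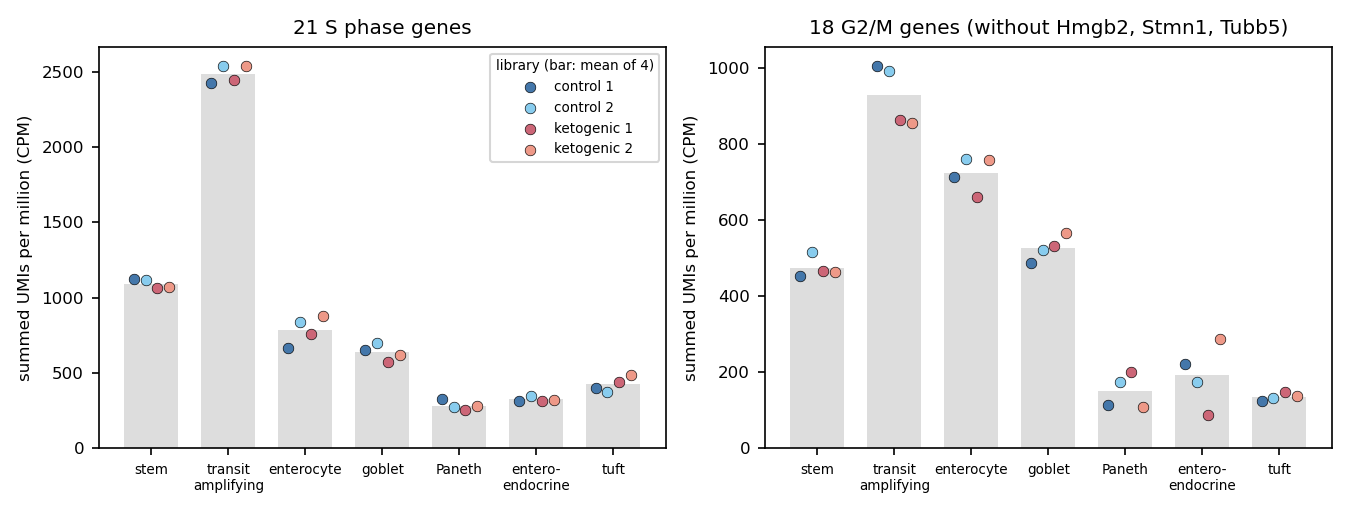
Summed level of the 21 S phase genes (left) and of 18 G2/M genes without Hmgb2, Stmn1 and Tubb5 (right) in each annotated cell type, in CPM (y axis from 0). Points are the 4 libraries and bars their mean. The S phase sum peaks in transit amplifying cells at 2487 CPM, while enterocytes reach 723 CPM of the G2/M sum against 927 CPM in transit amplifying cells.

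Pcna, the sliding clamp that tethers DNA polymerase, averaged 226 CPM in transit amplifying cells, 72.4 CPM in stem cells and 47.9 CPM in enterocytes. Among the helicase genes the step from stem to transit amplifying cells ran from 1.56 times for Mcm2 to 2.99 times for Mcm5. It was larger for Rrm2, the regulated subunit of ribonucleotide reductase, which stood at 94.4 CPM against 12.3 CPM in stem cells, 7.70 times higher. The cyclin E genes, which open S phase with CDK2, were 5.07 times (Ccne1) and 4.41 times (Ccne2) their stem cell means. A known pseudogene of Pcna is among the listed features, and the annotation also holds pseudogenes of Stmn1 and Ccnb1, so counts of these 3 genes are uncertain.

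G2/M genes were spread differently. Of the 21, 14 were highest in transit amplifying cells, 5 in enterocytes (Ccnb1, Ccnb2, Cdc20, Birc5 and Tpx2), 1 in stem cells (Cenpf) and 1 in enteroendocrine cells (Tubb5). Of them 3, the chromatin protein Hmgb2 and the microtubule genes Stmn1 and Tubb5, are also abundant outside the cycle: Tubb5 averaged 626 CPM in enteroendocrine and 609 CPM in tuft cells against 507 CPM in transit amplifying cells. The other 18 summed to 927 ± 80.5 CPM in transit amplifying cells, 723 ± 47.0 CPM in enterocytes, 526 ± 31.7 CPM in goblet cells and 474 ± 27.8 CPM in stem cells. They summed to 193 ± 84.1, 150 ± 44.7 and 136 ± 9.71 CPM in enteroendocrine, Paneth and tuft cells, which overlapped. Goblet and stem cell libraries overlapped as well, while the lowest transit amplifying library lay above the highest enterocyte library.

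The ratio between these types differed widely among G2/M genes. Top2a, which untangles chromosomes and is already made in S phase, averaged 195 CPM in transit amplifying cells and 49.1 CPM in enterocytes, 3.97 times apart. Mki67, the standard proliferation marker that coats mitotic chromosomes, averaged 103 against 41.3 CPM, and Cdk1, the mitotic kinase, 84.9 against 27.3 CPM. Its late partner cyclin B2 (Ccnb2) went the other way, with 41.2 CPM in transit amplifying cells and 94.0 CPM in enterocytes. Cdc20, which activates the anaphase promoting complex after the spindle is attached, had 31.0 against 73.3 CPM, and Ccnb1 18.5 against 38.3 CPM. Since enterocytes were the largest class (52.7% to 60.8% of cells), they carried 59.7% to 64.7% of all UMIs of the 18 G2/M genes and 43.5% to 44.9% of the S phase UMIs. Transit amplifying cells, 11.2% to 13.8% of cells, carried 17.9% to 22.8% and 33.7% to 38.0%.

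To set cells of unequal depth side by side, each cell was thinned at random to 2000 UMIs, and a cell was counted for a phase with at least 2 UMIs of its list, again without Hmgb2, Stmn1 and Tubb5. Cells below 2000 UMIs were left out, all of them in control library 2, where 527 of 557 stem cells and 657 of 676 transit amplifying cells remained. By this count 87.5% to 90.3% of transit amplifying cells were S phase positive and 36.2% to 43.5% G2/M positive. Stem cells had 49.6% to 52.4% and 17.6% to 20.5%, enterocytes 32.0% to 45.5% and 25.9% to 29.7%, and goblet cells 23.3% to 27.9% and 17.9% to 21.4%. Tuft cells, a differentiated type set beside the others as a reference, showed 14.7% to 21.3% and 2.59% to 7.59%, and a share at or below these is not read as cycling. Some S phase genes were present there, with Slbp at 85.1 to 97.6 CPM, and what makes up the tuft shares was not tested. Without thinning, the G2/M share was 71.3% to 76.1% in transit amplifying cells (median depth 8793.5 to 11691 UMIs) and 8.86% to 22.2% in tuft cells (5557 to 8138 UMIs).

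**Figure D2:**
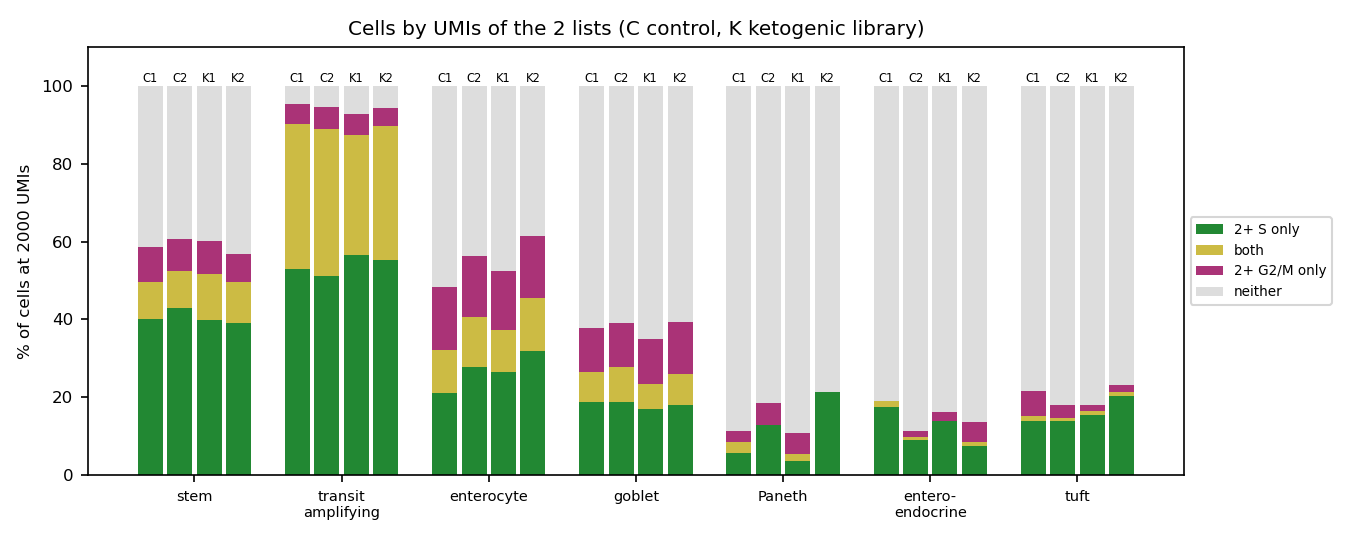
Share of cells (%) with at least 2 UMIs of S phase genes only, of both lists, of G2/M genes only, or of neither, at 2000 UMIs per cell, by cell type and library (C control, K ketogenic). Cells with G2/M genes only make up 15.1% to 16.2% of enterocytes and 4.73% to 5.78% of transit amplifying cells.

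Cells with both lists made up 30.9% to 37.7% of transit amplifying cells and 9.49% to 11.8% of stem cells. Cells with G2/M genes alone were rare among transit amplifying cells (4.73% to 5.78%) and made up 15.1% to 16.2% of the enterocyte class. Enterocyte markers were compared between these classes. In cells with neither list, 6 enterocyte markers summed to 4072 and 4985 CPM in control and 12177 and 6380.0 CPM in ketogenic libraries. In cells with both lists the same sum was 988 and 1538 CPM, and 4015 and 2546 CPM, and in cells with G2/M genes alone 1961 and 1705 CPM, and 5957 and 4083 CPM. In cells with S phase genes alone it was 1347 and 954 CPM, and 3217 and 2090 CPM. In each library the marker sum was thus lower in enterocyte class cells with 1 or both lists than in those with neither. These class levels were computed after the first results were seen. Among goblet cells, every class with 1 or both lists had raised doublet scores. With both lists, 20.0% to 36.1% of them lay in the top 6% of their library by doublet score. The share was 14.6% to 23.3% with S phase genes alone and 9.84% to 19.2% with G2/M genes alone. With neither list it was 4.75% to 8.04%. In each library it was highest in goblet cells with both lists. The part of doublets in these shares was not tested.

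Between single cells of 1 type the genes separated by phase. For each gene, its UMIs at 2000 per cell were correlated over cells with the summed UMIs of the rest of its own list and of the other list. Points share a library and a depth, and the values are descriptions. In transit amplifying cells (359 to 657 per library) all 21 S phase genes and 20 of 21 G2/M genes had the higher mean correlation with their own list, the exception being Stmn1 (r = 0.16 with S phase and 0.15 with G2/M genes). In stem cells (254 to 527 per library) it was 21 of 21 for both. These are means over libraries: in each of the 4 libraries taken alone, 16 S phase and 19 G2/M genes of transit amplifying cells and 14 and 16 of stem cells were closer to their own list. Mki67 of transit amplifying cells had r = 0.35 with the other G2/M genes and -0.11 with the S phase genes. Mcm6 had r = 0.07 with the other S phase genes and -0.15 with the G2/M genes. S phase values were low throughout, at 0.07 (Mcm6) to 0.16 (Gmnn) with their own list, and in counts this sparse such values carry little weight. G2/M values ran from 0.12 (Ccnb2) to 0.40 (Hmgb2). Rrm1, Rrm2, Tyms and, on the other side, Cdk1 stood between the lists: Tyms had r = 0.16 with S phase and 0.14 with G2/M genes, and Cdk1 0.16 and 0.19. Over cells the summed lists had r of -0.09 to 0.04 in transit amplifying cells, -0.08 to 0.16 in stem cells and, among types added after the first results were seen, 0.12 to 0.22 in goblet cells and at most 0.07 in enterocytes. The counts were also 21 and 20 of 21 in enterocytes and 21 and 21 of 21 in goblet cells, types added after the first results were seen.

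**Figure D3:**
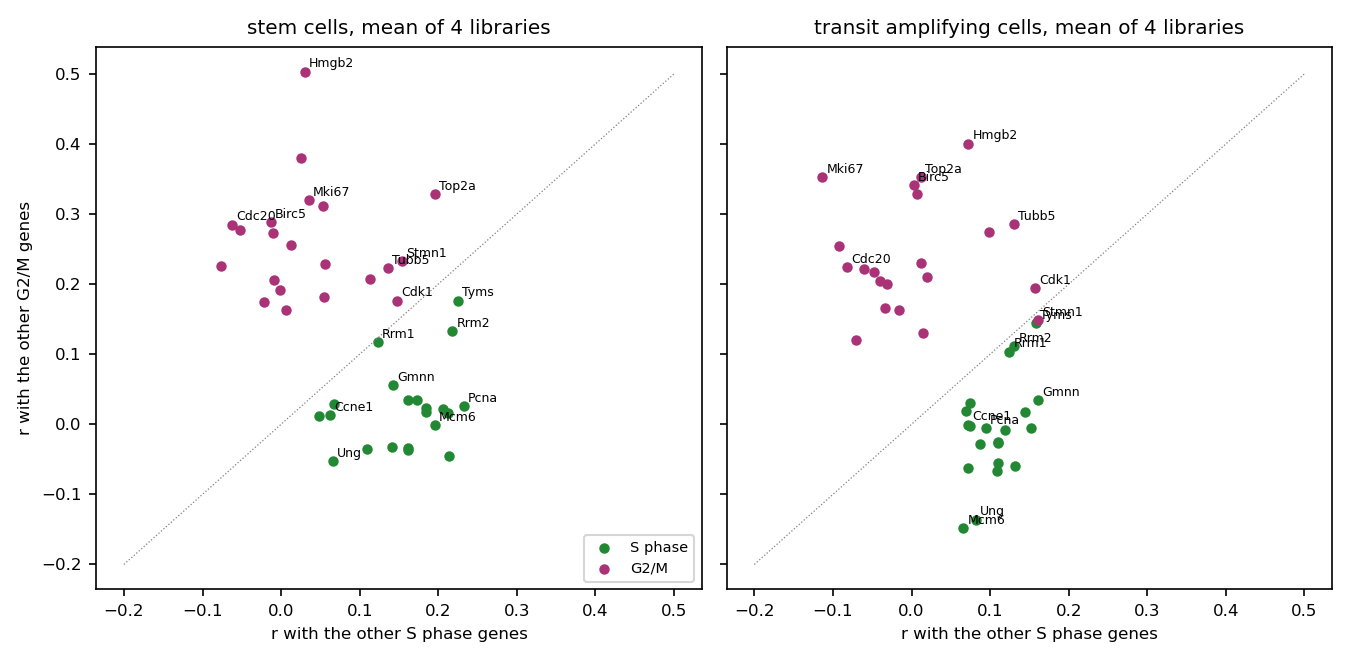
Mean Pearson correlation over cells of each gene with the other S phase genes (x axis) and with the other G2/M genes (y axis), in stem and transit amplifying cells, means of 4 libraries at 2000 UMIs per cell. G2/M genes lie above the line of equal correlation and S phase genes below it, except Stmn1 in transit amplifying cells.

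The question for the diet was whether cells of the crypt, stem and transit amplifying, made more or less of either phase. None of the 42 genes passed the test in any cell type. In the summed epithelium 0 of 42 passed edgeR's quasi-likelihood test at a Benjamini-Hochberg adjusted p under 0.05, where 0.172% of 12784 genes did, with 3 at an unadjusted p under 0.05 (11.0% of all genes) and 0 by DESeq2 (1.63%). Their median log2 fold change, ketogenic over control, was -0.05 for S phase and -0.12 for G2/M genes, against 0.01 for all genes. The sign of the S phase median rested on single libraries: it was -0.17 without control library 1, 0.07 without control library 2, 0.08 without ketogenic library 1 and -0.16 without ketogenic library 2. The G2/M median ran from -0.23 (without ketogenic library 2) to -0.03 (without ketogenic library 1). Mki67 lay at 45.9 and 53.2 CPM in control and 47.2 and 45.8 CPM in ketogenic libraries, which overlapped (-0.09 ± 0.10, SE, adjusted p = 0.788). Fewer cells of a type and less RNA per cell cannot be told apart in such sums, so each type was tested on its own.

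In stem cells 0 of 42 passed by edgeR, against 0.336% of 9514 genes, with 0 S phase and 2 G2/M genes at an unadjusted p under 0.05 (6.42% of all genes) and 0 by DESeq2 (0.126%). The median log2 fold change was -0.08 for S phase genes, of which 14 were lower, and 0.03 for G2/M genes, of which 9 were lower. The 95% interval stayed within a 2-fold change either way for 20 of 21 S phase and 16 of 21 G2/M genes. The exceptions were all low in level, and for Cdc6 the interval ran from -1.44 to 0.09. Without control library 1 the G2/M median was -0.10 and without control library 2 it was 0.17, so its sign rested on single libraries. The diets did not overlap in 13 genes that were lower and 4 that were higher, where 17.5% and 17.4% of all genes did so.

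Among helicase subunits of stem cells, Mcm2 had 72.0 and 53.5 CPM in control and 57.2 and 51.4 CPM in ketogenic libraries. Mcm5 stood at 55.7 and 50.4 CPM against 56.1 and 53.4 CPM, and Mcm6 at 108 and 116 against 90.6 and 111 CPM. All 3 overlapped between the diets, as did the clamp Pcna, at 74.6 and 63.9 CPM in control and 71.6 and 79.4 CPM in ketogenic libraries. Of the licensing factors that load the helicase, Cdc6 and Cdt1 were lower without overlap. Among 8 tested genes of a list of other licensing and firing genes, 6 were higher and 2 lower, with a median of 0.06. Cdc6 had 7.66 and 8.61 against 6.56 and 4.38 CPM (-0.67 ± 0.37, adjusted p = 0.837 by edgeR). Cdt1 had 53.1 and 53.8 against 48.9 and 45.0 CPM (-0.20 ± 0.15, adjusted p = 0.913). The Cdt1 inhibitor Gmnn, which blocks a second round of licensing, had 63.8 and 75.0 against 54.3 and 59.3 CPM, also without overlap (-0.29 ± 0.15, adjusted p = 0.785 by edgeR).

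Rrm2 was higher in ketogenic stem cells, at 8.68 and 12.0 CPM in control and 14.9 and 13.4 CPM in ketogenic libraries, with no overlap and no call (0.39 ± 0.28, adjusted p = 0.9). Thymidylate synthase, Tyms, overlapped at 64.9 and 72.2 against 61.4 and 87.9 CPM. Of the genes that copy chromatin marks behind the fork, Uhrf1 had 28.6 and 32.9 against 25.6 and 27.2 CPM without overlap, and the helicase Hells 55.7 and 54.7 against 57.8 and 48.2 CPM with overlap. The cyclin E genes were near the lower limit of what these sums resolve, with Ccne1 at 5.62 and 5.53 against 3.58 and 6.43 CPM and Ccne2 at 6.13 and 4.92 against 5.37 and 6.43 CPM. Neither separated the diets.

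Of the chromosome genes of G2/M in stem cells, Mki67 was at 43.9 and 42.4 CPM in control and 35.2 and 39.1 CPM in ketogenic libraries and Top2a at 76.1 and 71.3 against 52.5 and 65.1 CPM, both without overlap. Hmgb2 went the other way without overlap, from 394 and 400.2 to 494 and 449.8 CPM (0.25 ± 0.12, adjusted p = 0.75). The kinase and its cyclins showed no common direction. Cdk1 stood at 19.4 and 32.6 against 28.0 and 27.2 CPM and the S and G2 cyclin Ccna2 at 22.0 and 25.5 against 26.2 and 19.6 CPM. Ccnb1 had 12.8 and 18.7 against 19.1 and 18.4 CPM, and Ccnb2 44.4 and 51.6 against 57.2 and 53.7 CPM. Only Ccnb2 of these 4 did not overlap, and it was higher.

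The ubiquitin conjugating enzyme of the anaphase promoting complex, Ube2c, had the lowest adjusted p of the 42 in stem cells. It lay at 69.5 and 72.5 CPM in control and 51.3 and 57.8 CPM in ketogenic libraries, without overlap (-0.37 ± 0.14, adjusted p = 0.571). Cdc20 was at 36.3 and 34.4 against 31.0 and 32.4 CPM, also without overlap. The mitotic kinase Plk1 had 9.70 and 9.53 against 8.35 and 10.8 CPM, and Birc5, the survivin subunit of the chromosomal passenger complex, 36.3 and 55.0 against 45.3 and 48.5 CPM. Both overlapped, as did the kinetochore protein Cenpf with 25.5 and 36.6 against 37.0 and 32.1 CPM. The checkpoint kinase Bub1 was low and higher without overlap at 3.06 and 3.07 against 5.37 and 4.09 CPM (0.56 ± 0.46). Nusap1, which bundles spindle microtubules, was lower without overlap at 8.68 and 8.61 against 3.58 and 7.30 CPM (-0.53 ± 0.37). Stmn1 at 657 and 718 against 606 and 731 CPM and Tubb5 at 336 and 387 against 354 and 408 CPM overlapped.

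In transit amplifying cells, where both phases were most abundant, S phase genes lay on both sides of 0 and most G2/M genes were lower in ketogenic libraries. Again 0 of 42 passed by edgeR, against 0.715% of 10069 genes, with 2 S phase and 3 G2/M genes at an unadjusted p under 0.05 (9.21% of all genes, 4.44% lower and 4.77% higher) and 0 by DESeq2 (0.546%). The S phase median was 0.01, with 13 genes higher and 8 lower. The G2/M median was -0.21, with 7 higher and 14 lower, against 0.0049 for all genes, and it ran from -0.15 to -0.19 when each library was left out. The diets did not overlap in 11 G2/M genes that were lower and 1 that was higher (Cenpf), where 19.6% and 20.1% of all genes did so. Genes of 1 phase move together within a library, so these counts are not separate observations. For S phase genes the counts were 5 lower and 3 higher.

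**Figure D4:**
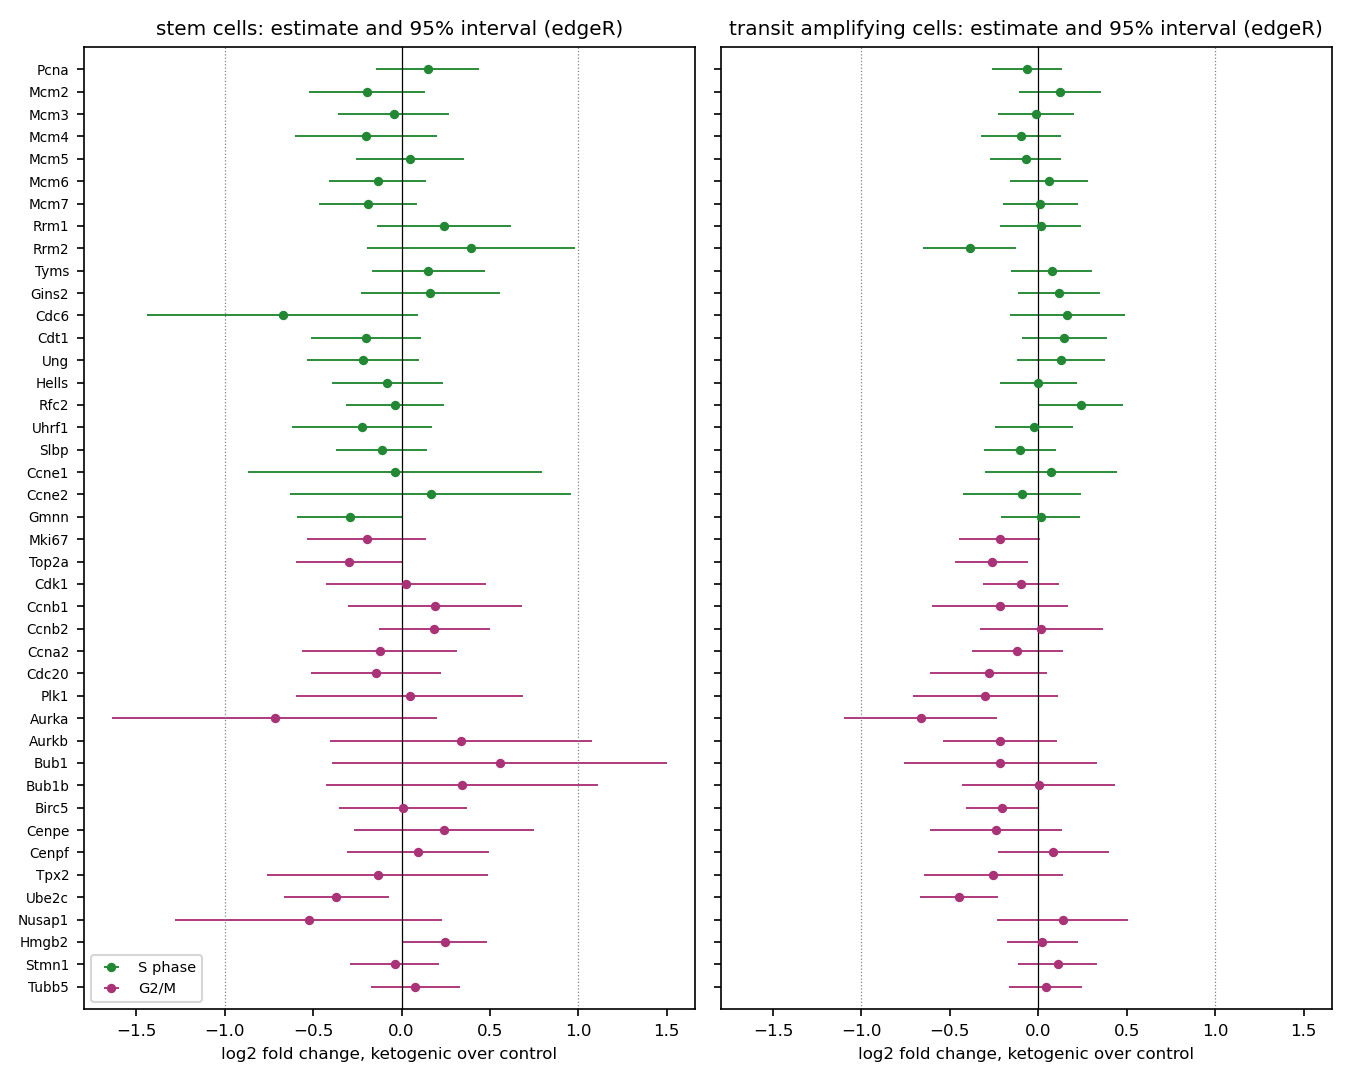
Log2 fold change (ketogenic over control, x axis) of each of the 42 genes in stem (left) and transit amplifying cells (right), with 95% intervals from edgeR on 2 libraries per diet. Dotted lines mark a 2-fold change. In transit amplifying cells 14 of 21 G2/M genes lie below 0 and none passed the adjusted test.

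Most S phase genes of transit amplifying cells had fold changes near 0. Pcna had 228 and 233 CPM in control and 228 and 214 CPM in ketogenic libraries (-0.06 ± 0.09, 95% interval -0.26 to 0.14). Mcm6 had 222 and 262 against 257 and 248 CPM (0.06 ± 0.10, 95% interval -0.16 to 0.28). All 21 S phase intervals stayed within a 2-fold change. Mcm2 stood at 93.4 and 81.3 against 91.6 and 97.8 CPM, and Mcm5 at 165 and 165 against 153 and 161 CPM. Licensing genes showed Cdc6 at 22.0 and 22.8 against 25.8 and 24.5 CPM, higher without overlap, and Cdt1 at 80.6 and 88.7 against 86.1 and 101 CPM and Gmnn at 141 and 162 against 147 and 160.0 CPM, both overlapping. Tyms (163 and 185 against 170.2 and 196 CPM), Uhrf1 (81.8 and 89.0 against 83.0 and 85.1 CPM) and Hells (118 and 118 against 125 and 112 CPM) overlapped as well. So did both cyclin E genes, Ccne1 at 30.2 and 22.4 against 25.0 and 29.5 CPM and Ccne2 at 28.1 and 24.1 against 23.4 and 25.2 CPM. Rfc2, a subunit of the loader of the Pcna clamp, was higher without overlap, from 112 and 137 to 146 and 148 CPM (0.24 ± 0.11, adjusted p = 0.534), and the histone mRNA binding protein Slbp lower, from 252 and 249 to 222 and 244 CPM (-0.10 ± 0.09).

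Rrm2 (chr12:24708241-24714146, plus strand, mm10) departed most from the other S phase genes. It lay at 117 and 97.6 CPM in control and 74.0 and 89.0 CPM in ketogenic transit amplifying cells, without overlap (-0.39 ± 0.12, adjusted p = 0.273 by edgeR). It passed in 2 of 11 alternatives, with no filter on low counts, where 1.88% of all genes passed, and without control library 2 (-0.52). Its partner subunit Rrm1 had 97.8 and 106 against 96.0 and 109 CPM.

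Of the G2/M genes in transit amplifying cells, Ube2c (chr2:164769898-164778822, plus strand, mm10) came nearest to a call. It had 118 and 119 CPM in control and 81.7 and 91.5 CPM in ketogenic libraries, both ketogenic values below both controls (-0.45 ± 0.10, adjusted p = 0.077 by edgeR). It passed in 6 of 11 alternatives, over which the adjusted p ran from 0.00701 to 0.496. Those included the fits without control library 1 (-0.46), without control library 2 (-0.44) and with a replicate block (-0.45, adjusted p = 0.0138 by edgeR). Ube2c did not pass with RLE, by DESeq2, without the highest doublet scores or without either ketogenic library. In the alternatives with all 4 libraries where it passed, 0.93% to 1.99% of all genes passed, against 0.715% in the main fit. Aurka, the kinase of the spindle poles, had 23.7 and 19.0 against 15.1 and 11.8 CPM without overlap (-0.66 ± 0.20, adjusted p = 0.231 by edgeR). It passed in 2 of 11 alternatives, with no filter on low counts, where 1.88% of all genes passed, and without control library 2 (-0.83). Top2a had 219.7 and 205 against 183 and 170.5 CPM (-0.26 ± 0.09, adjusted p = 0.363) and Mki67 110.1 and 111 against 102 and 88.3 CPM (-0.22 ± 0.10, adjusted p = 0.559), each without overlap.

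None of the remaining mitotic genes passed the test. Cdk1 had 86.4 and 89.2 CPM in control against 80.6 and 83.5 CPM in ketogenic transit amplifying cells, Ccna2 51.3 and 57.8 against 49.2 and 51.5 CPM, and Ccnb1 21.8 and 18.1 against 16.5 and 17.5 CPM. Cdk1 and Ccnb1 were lower without overlap and Ccna2 overlapped. Ccnb2 was at 41.1 and 41.1 against 33.5 and 49.0 CPM, with its 2 ketogenic libraries on either side of the controls. Cdc20 stood at 37.0 and 31.1 against 30.5 and 25.4 CPM and Birc5 at 128 and 133 against 112 and 115 CPM, lower without overlap, and Plk1 at 29.0 and 20.6 against 21.2 and 18.8 CPM with overlap. Cenpf was higher without overlap, from 24.0 and 24.9 to 25.8 and 26.1 CPM (0.09 ± 0.15). The 3 genes abundant outside the cycle overlapped: Hmgb2 had 705 and 686 against 687 and 725 CPM, Stmn1 845 and 934 against 903 and 1016 CPM and Tubb5 487 and 513 against 489 and 539.8 CPM.

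Counted by cells rather than UMIs, 42.3% and 43.5% of control and 36.2% and 39.0% of ketogenic transit amplifying cells were G2/M positive at 2000 UMIs, a difference of -5.33 points against a pooled SD of 1.52 points. The exact permutation test of 2 against 2 libraries cannot go below a two-sided p of 0.33. Without thinning the shares overlapped, at 75.0% and 72.0% against 71.3% and 76.1%, with ketogenic cells deeper. The S phase share differed by -1.07 points (pooled SD 1.28), and in stem cells the differences were -0.46 points for S phase (SD 1.68) and 0.92 for G2/M (SD 1.51). Enterocyte markers moved with the diet in the same cells: 6 of them, none at 0, summed to 645 and 720.5 CPM in control and 2258 and 1355 CPM in ketogenic transit amplifying cells. This was not particular to them. The sum was 337 and 411 against 1046 and 743 CPM in stem cells and 2796 and 2857 against 7760 and 4042 CPM in enterocytes. In goblet cells it was 229 and 237 against 499 and 372 CPM, and in the rarer types the diets overlapped. The part of these markers in the G2/M values was not tested. The G2/M median was as large with only cells under 10% mitochondrial UMIs (-0.23) and was -0.19 once the 6% of cells scored highest as doublets were dropped.

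The diet effect itself was compared between transit amplifying and stem cells in a model of 8 sums, blocked by library. Of 42 genes 0 differed by edgeR, against 0.194% of 10285 genes. At an unadjusted p under 0.05 it was 8 of the 42, against 6.56% of all genes, and by DESeq2 0, against 0.0389%. Rrm2, higher in ketogenic stem and lower in ketogenic transit amplifying cells, had the lowest adjusted p, with a difference of -0.69 ± 0.27 (adjusted p = 0.510 by edgeR). The licensing genes had differences of 0.84 ± 0.38 for Cdc6, 0.38 ± 0.16 for Cdt1 and 0.32 ± 0.14 for Gmnn, with adjusted p of 0.698, 0.613 and 0.663.

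In enterocytes 0 of 42 passed by edgeR, against 0.180% of 11697 genes, with 4 S phase and 0 G2/M genes at an unadjusted p under 0.05 (9.91% of all genes) and 0 by DESeq2 (1.50%). The S phase median was 0.14, with 16 genes higher, and the G2/M median -0.05. Without control library 2 the S phase median was 0.39, and Ung, Mcm6 and Rrm2 passed (0.78, 0.58 and -0.77, adjusted p = 0.00505, 0.0326 and 0.0357), so single libraries set these values. In that fit 6.37% of 11933 genes passed, a share close to the 3 of 42. Ung, the glycosylase that removes uracil from DNA, stood at 21.8 and 29.9 CPM in control and 38.0 and 37.7 CPM in ketogenic enterocytes with all 4 libraries (0.55 ± 0.16, adjusted p = 0.313). Rrm2 was lower here too, at 24.1 and 20.9 against 11.6 and 16.9 CPM (-0.65 ± 0.19, adjusted p = 0.311). Both were named after their values were seen. The diets did not overlap in 6 genes that were lower and 6 that were higher, where 20.5% and 22.9% of all genes did so, which is near the background.

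Goblet cells showed the lists on opposite sides. Of 42 genes 0 passed by edgeR, against 0.521% of 9984 genes, with 5 S phase and 4 G2/M genes at an unadjusted p under 0.05 (8.96% of all genes) and 0 by DESeq2 (0.240%). The S phase median was -0.21, with 17 of 21 genes lower, and the G2/M median 0.13, with 15 of 21 higher. Without ketogenic library 2 the medians were -0.32 and 0.06, and without ketogenic library 1 they were -0.12 and 0.15. Without control library 1 they were -0.24 and 0.06, and without control library 2 -0.13 and 0.18, so both kept their sign while their size moved. The diets did not overlap in 9 S phase genes that were lower and 8 G2/M genes that were higher, where 19.1% and 19.4% of all genes did so. Rrm2 lay at 23.9 and 22.7 CPM in control and 12.2 and 15.9 CPM in ketogenic goblet cells (-0.73 ± 0.18, adjusted p = 0.0991 by edgeR). It passed only in fits that left 1 library in a diet, without control library 2 (-0.77) and without ketogenic library 2 (-0.93). Mcm3 had 24.2 and 24.5 against 14.4 and 18.4 CPM (-0.57 ± 0.17, adjusted p = 0.222). On the other side Ccnb2 had 47.3 and 44.1 against 55.7 and 59.4 CPM (0.33 ± 0.12, adjusted p = 0.334 by edgeR). Hmgb2 had 549 and 456 against 603 and 608 CPM (0.27 ± 0.09, adjusted p = 0.323 by edgeR). It passed only in a fit that left 1 library in a diet, without control library 1 (0.41). These genes were named after their values were seen. With the 6% of cells scored highest as doublets dropped, the G2/M median was 0.02 and the S phase median -0.26. The summed goblet markers were 61236 and 65807 CPM in control and 70363 and 61420.0 CPM in ketogenic libraries, which overlapped.

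Few of the genes were abundant enough to test in the rarer types: 3 S phase and 4 G2/M genes in Paneth cells, 6 and 7 in enteroendocrine cells and 12 and 8 in tuft cells. None passed by edgeR or DESeq2, with 0, 0 and 2 at an unadjusted p under 0.05, where 0.440% of 2957, 0.0582% of 6877 and 0.0144% of 6963 genes passed by edgeR and 7.68%, 4.61% and 5.34% lay under that p. By DESeq2 0.338%, 0.0291% and 0.0287% of all genes passed in these 3 types. In enteroendocrine cells Tubb5 (0.56 without control library 2) and Ube2c (-1.63 without ketogenic library 2) passed only in a fit that left 1 library in a diet. In tuft cells the 2 were Ccnb2 (-1.54 ± 0.48), from 10 and 16 UMIs in control to 7 and 5 in ketogenic libraries, and Top2a (1.26 ± 0.52), from 2 and 8 to 18 and 15 UMIs. Of 12 S phase genes tested in tuft cells 11 were higher (median 0.20), where 51% of all genes were lower. Their S phase sums did not overlap, at 398 and 374 CPM in control against 443 and 488 CPM in ketogenic libraries. In Paneth cells 2 of 3 S phase genes were higher and in enteroendocrine cells 2 of 6.

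The balance of the phases was taken as the log2 ratio of summed S phase to summed G2/M UMIs. With all 42 genes, ketogenic minus control, it was 0.03 in transit amplifying cells, -0.12 in stem cells, 0.01 in enterocytes and -0.31 in goblet cells, against pooled SDs of 0.02, 0.08, 0.10 and 0.06. Hmgb2, Stmn1 and Tubb5 dominate the G2/M sum, and without them the differences were 0.22 (SD 0.05), -0.02 (SD 0.10), 0.19 (SD 0.12) and -0.30 (SD 0.01). The transit amplifying ratios were then 1.27 and 1.36 on the control diet against 1.51 and 1.57 on the ketogenic diet, with no overlap. In goblet cells they were 0.43 and 0.43 against 0.12 and 0.14, again without overlap and in the opposite direction. Goblet cells were added to this comparison after the first results were seen. In tuft cells the difference was 0.23 (SD 0.10) with all 42 genes, without overlap. It was 0.12 (SD 0.15) without Hmgb2, Stmn1 and Tubb5, with overlap. With all 42 genes it was -0.16 (SD 0.23) in enteroendocrine and -0.04 (SD 0.45) in Paneth cells.

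**Figure D5:**
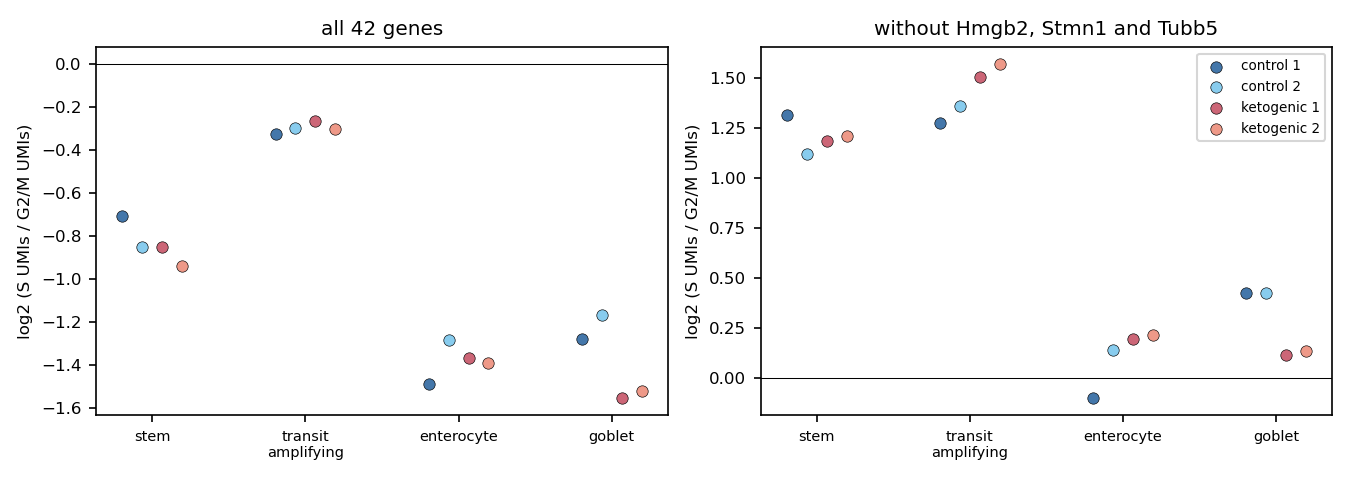
Log2 ratio of summed S phase to summed G2/M UMIs (y axis) per library and cell type, with all 42 genes (left) and without Hmgb2, Stmn1 and Tubb5 (right). Points are the 4 libraries. In the right panel ketogenic transit amplifying libraries lie above the controls (1.51 and 1.57 against 1.27 and 1.36) and ketogenic goblet libraries below them (0.12 and 0.14 against 0.43 and 0.43).

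Other genes of the cycle were read from 10 lists of its functions. None of their tested genes passed in stem or transit amplifying cells by edgeR. Of 19 fork and chromatin copying genes in transit amplifying cells, 12 were higher and 7 lower with a median of 0.04 and 1 each way at an unadjusted p under 0.05. Of 20 spindle and kinetochore genes there, 16 were lower with a median of -0.17 and 2 lower at that p, where 48.8% of all genes were lower and 4.44% lower at that p. In stem cells the same lists had medians of -0.06 and 0.04. The 8 condensin genes of transit amplifying cells had a median of 0.005, with 4 higher and 4 lower. The 9 genes of mitotic entry and exit had a median of -0.15 there, with 6 lower. Also in transit amplifying cells, the medians were -0.12 for inhibitors and -0.06 for chromatin proteins. They were -0.01 for licensing and firing and 0.02 for nucleotide supply. The 15 genes of RB, E2F and DREAM, the regulators of both programmes, had a median of -0.03 in transit amplifying cells, with 1 lower at an unadjusted p under 0.05. The 6 G1 cyclins and kinases, which carry growth signals to RB, had a median of 0.06 in transit amplifying and -0.07 in stem cells.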

How the data were processed

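Raw UMI counts per gene and cell were deposited by the authors as a single matrix, beside a cell table that holds library and type. The submitters' processing notes name Cell Ranger 2.1.0 and mm10. Cell filters, doublet handling and annotation version are not stated in those notes. Library names equal the sample titles, and the diet label gave the groups.

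Cells are not replicates, so counts were added up by library, for the whole epithelium and for each type. Ketogenic was tested against control with edgeR 4.0.16 in R 4.3.3 (quasi-likelihood test, TMM, filterByExpr by diet) on all genes, and p was adjusted after Benjamini and Hochberg (threshold 0.05). CPM of the cycle genes uses TMM-adjusted totals, and n was 2 libraries per diet. Sums of cell type markers were scaled by raw UMI totals, without TMM. The standard error was the absolute log2 fold change divided by the root of F. In simulated counts the test recovered 63.27% of 2-fold changes in all cells, 74.23% in stem, 72.73% in transit amplifying, 74.23% in enterocyte and 73.96% in goblet sums. Each simulation planted 100 genes per fold and gave 177 to 186 calls, 11 to 20 of them unchanged genes. In the data 21 to 72 genes passed in these sums, which makes the adjusted threshold stricter, so recovery may be lower there. Changes under 2-fold were not simulated.

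The 42 genes and all lists were chosen with earlier results of these data known, and the promoter motifs after the files were seen. Values in every library are given for 27 genes chosen by name in stem and transit amplifying cells, for any gene past the threshold, and for the 2 largest rises and falls per list among genes whose diets do not overlap. Scrublet in scanpy 1.11.5 called 0.0204% to 0.188% of cells, under the 0.5% taken as a sign that it works, so dropping the 6% of cells scored highest was an alternative. Further alternatives used DESeq2 1.42.0, RLE, all genes unfiltered, cells under 10% mitochondrial UMIs, thinned sums, a block on replicate number, and each library left out in turn. Replicate numbers of the 2 diets were not taken as pairs. Promoters come from RefSeq (GRCm38.p6), and 31 of 35 windows matched a GENCODE M21 transcript start of their gene. Gene positions are from GENCODE M21. Of the other cycle genes, Knl1, Sgo1 and Sgo2a were not analysed here.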

Additional observations from a re-analysis of the deposited data

Results flagged for a closer look

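The balance of the phases moved in opposite directions in different cell types. Without Hmgb2, Stmn1 and Tubb5, the log2 ratio of summed S phase to summed G2/M UMIs, ketogenic minus control, was 0.22 in transit amplifying cells and 0.19 in enterocytes, and -0.30 in goblet cells. Each ketogenic library lay above both control libraries in the first and second of these types and below both in goblet cells. That separation was the condition for being flagged, so it adds no support. Stem cells, at -0.02, did not separate. The pooled SD in enterocytes was 0.12. Goblet cells were added after the first results were seen. The difference between the types was not tested. With all 42 genes the values were 0.03 in transit amplifying cells, 0.01 in enterocytes and -0.31 in goblet cells.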

How the results depend on the processing

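The count of genes called was 0 in stem, Paneth and tuft cells, and in the comparison of transit amplifying with stem cells, under each alternative run. It was 1 in all cells and 1 in enterocytes with no filter, where 2.26% and 1.88% of all genes were called. In transit amplifying cells it was 3 with no filter, where 1.88% of all genes were called. It was 1 each with the replicate block (1.99% of all genes), with cells under 10% mitochondrial UMIs (1.07%) and with thinned sums (0.93%). Some fits without 1 library also called genes of the lists in transit amplifying, enterocyte, goblet and enteroendocrine sums. Such a fit leaves 1 library in a diet. Counts over all genes moved more: in transit amplifying cells 72 genes were called, 279 with no filter, 200 with the replicate block, and 37 to 290 when a library was left out. In stem cells the counts were 32, 74, 99 and 48 to 100, with 12 by DESeq2. In all cells 22 genes were called, 407 with no filter, 208 by DESeq2, 69 with the replicate block and 29 to 364 without 1 library, and in enterocytes the same counts were 21, 313, 176, 137 and 12 to 760, with 51 under the mitochondrial limit. In goblet cells 52 were called, 35 with no filter, 24 by DESeq2, 33 with thinned sums, 104 with the replicate block and 99 to 189 without 1 library.

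Leaving out each library moved the S phase median between -0.11 and -0.063 in stem cells and between -0.050 and 0.39 in enterocytes. It moved the G2/M median between -0.23 and -0.028 in all cells, -0.10 and 0.17 in stem cells, -0.19 and -0.15 in transit amplifying cells, and -0.12 and 0.064 in enterocytes. The stem cell S phase median was -0.11 with DESeq2, -0.064 with cells under 10% mitochondrial UMIs and -0.027 with thinned sums. The transit amplifying G2/M median was -0.23 under the mitochondrial limit and -0.19 without the highest doublet scores. The log2 ratio of the phases was -0.019 in stem, 0.22 in transit amplifying cells and 0.19 in enterocytes without the 3 abundant genes, and 0.17 and 0.12 in the last 2 with genes weighted alike.

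The S phase share of stem cells differed by -6.95 points at a minimum of 3 UMIs, -3.52 at 1000 UMIs per cell and 3.37 under the mitochondrial limit. Their G2/M share differed by -2.00 points at a minimum of 1 UMI, 3.73 at 4000 UMIs and -2.48 with the 3 abundant genes. In transit amplifying cells the S phase share differed by -2.56 points at a minimum of 3 UMIs and 0.39 at 1000 UMIs, and the G2/M share by -3.65 at 1000 UMIs.

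Of 647 values of named genes under alternatives, 52 changed sign. Over the fits that left out a library, log2 fold changes in stem cells ran from -0.42 to 0.0062 for Mcm2, -0.16 to 0.36 for Tyms, -0.24 to 0.51 for Cdk1, -0.29 to 0.13 for Ccna2, -0.22 to 0.39 for Birc5, -0.11 to 0.42 for Cenpf and -0.18 to 0.092 for Stmn1. In transit amplifying cells they ran from -0.054 to 0.19 for Mcm6, -0.030 to 0.17 for Tyms, -0.14 to 0.29 for Ccne1 and -0.29 to 0.25 for Ccnb2, and Cenpf was -0.080 under the mitochondrial limit. The cause of these changes was not tested. Same-numbered libraries deviated with a correlation of -0.04 to 0.08, and with the replicate block 1 gene was called, Ube2c in transit amplifying cells (-0.45). A fit that leaves out a library takes the spread of the remaining pair for the single library of the other diet. In stem cells the 95% interval of Cdc6 and of 5 G2/M genes reached beyond a 2-fold change, so these sums do not bound their changes within that size.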
